A study of Homo sapiens with 6 samples.

Results

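The rarely included cassette exons are exons that the control cells almost always skipped. They were chosen from the skipped exon (SE) events of the study as exons of 28 to 300 nt whose event had a mean of at least 100 junction reads over the 6 libraries and a percent spliced in (PSI) of at most 5% in the control libraries. PSI is the share of transcripts that hold the exon, computed from the reads on the junctions into and out of the exon and on the junction that skips it, after division by the effective length of each form. The reads of the 3 control libraries were summed for this rule. It found 2545 events in 1615 genes, which is 10.6% of the 23994 SE events of that length and depth, and these stand among 55919 SE events and 78336 events of 5 types in all. Another 2996 of the 23994 events had a control PSI over 5% and up to 95% and are called alternative here, and 18453 had a control PSI over 95% and are called near constitutive. Since the control PSI chose the exons, their low PSI in the control libraries is a description and not a finding.

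The cells were NCI-H1975, an established human lung adenocarcinoma (LUAD) line, so that all 6 libraries are of 1 line. The 3 libraries labelled control (the controls) came from cells given the empty PCDNA3.1 plasmid, and the 3 labelled SAM68 from cells given PCDNA3.1-SAM68, each at 2 µg per well by lipofection for 48 h. SAM68, encoded by KHDRBS1, is an RNA-binding protein of the STAR family that alters the choice of splice sites. The labels name the libraries as separate samples, and the lists of 3 counts per group in the tables carry no replicate numbers, so libraries are given by their place in these lists.

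A cassette exon is an exon that the spliceosome either joins to its neighbours or leaves out together with the introns around it. The spliceosome recognizes an exon by the 3′ splice site at the end of the intron before it, with a run of pyrimidines and the bases AG, and by the 5′ splice site at the start of the intron after it, mostly with the bases GT. SR proteins often favour inclusion of an exon and hnRNP proteins often favour its skipping. Some cassette exons bring a stop codon in the reading frame, and are called poison exons. A transcript that holds such an exon can be degraded by nonsense-mediated decay (NMD), the pathway that removes mRNAs with a premature stop codon. Many genes of SR and hnRNP proteins hold poison exons, through which these proteins limit their own levels.

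The exons that bring a stop codon make up most of the group, and the sequences of 7 of them are shown first so that the stop codon can be seen. They are from hg38 on the coding strand, 5′ to 3′, and were chosen after their values were seen, from splicing factors and from the members with many inclusion reads. Capitals mark the first stop codon in the reading frame that the exon before it carries in GENCODE 44. SRSF7 (chr2:38748898-38749173, minus strand, 276 nt) and SRSF4 (chr1:29159864-29160058, minus strand, 195 nt) encode SR proteins, and HNRNPH1 (chr5:179621843-179621976, minus strand, 134 nt) an hnRNP protein. U2AF2 (chr19:55658862-55658981, plus strand, 120 nt) encodes the protein that binds the pyrimidine run, and SNRPD2 (chr19:45689233-45689347, minus strand, 115 nt) a core protein of the spliceosomal snRNPs. RPS9 (chr19:54206553-54206724, plus strand, 172 nt) encodes a protein of the small ribosomal subunit and NDUFA11 (chr19:5901335-5901454, minus strand, 120 nt) a subunit of respiratory complex I. The first base of the stop codon is base 20 of the exon in SRSF7, 39 in SRSF4, 24 in HNRNPH1, 108 in U2AF2, 5 in SNRPD2, 11 in RPS9 and 9 in NDUFA11.
SRSF7: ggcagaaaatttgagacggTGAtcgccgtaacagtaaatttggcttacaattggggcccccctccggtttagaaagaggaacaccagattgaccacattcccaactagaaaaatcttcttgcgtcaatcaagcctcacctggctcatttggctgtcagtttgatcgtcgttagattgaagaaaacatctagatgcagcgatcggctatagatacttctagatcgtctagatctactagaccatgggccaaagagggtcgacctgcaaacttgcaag
SRSF4: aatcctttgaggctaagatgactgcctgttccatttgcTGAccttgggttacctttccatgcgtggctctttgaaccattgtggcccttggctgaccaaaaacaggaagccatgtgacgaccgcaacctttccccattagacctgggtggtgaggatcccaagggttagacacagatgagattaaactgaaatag
HNRNPH1: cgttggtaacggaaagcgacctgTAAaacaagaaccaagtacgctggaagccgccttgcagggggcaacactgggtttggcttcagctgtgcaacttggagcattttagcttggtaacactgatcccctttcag
U2AF2: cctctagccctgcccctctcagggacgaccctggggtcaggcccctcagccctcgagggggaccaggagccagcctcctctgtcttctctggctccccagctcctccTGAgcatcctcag
SNRPD2: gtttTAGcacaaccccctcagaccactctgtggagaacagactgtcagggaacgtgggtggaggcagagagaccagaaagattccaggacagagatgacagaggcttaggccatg
RPS9: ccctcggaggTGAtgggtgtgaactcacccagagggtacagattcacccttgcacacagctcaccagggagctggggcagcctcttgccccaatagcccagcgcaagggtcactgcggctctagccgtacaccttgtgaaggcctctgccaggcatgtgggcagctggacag
NDUFA11: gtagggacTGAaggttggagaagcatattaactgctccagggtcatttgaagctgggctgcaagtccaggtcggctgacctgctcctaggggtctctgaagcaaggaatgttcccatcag

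The second set holds exons with no stop codon. IARS and RPN2 are exons that passed the test between the groups, LUC7L and SETD5 are among the exons with a control PSI under 5% and a SAM68 PSI over 10%, and CD44 is the exon of that gene with the most inclusion reads. Each line gives 20 bases of the intron before the exon, the exon and 6 bases of the intron after it, with the AG and GT of the splice sites in capitals. The windows are chr9:92240637-92240711 on the minus strand for IARS, chr20:37238382-37238455 on the plus strand for RPN2, chr16:228327-228422 on the minus strand for LUC7L, chr3:9468499-9468581 on the plus strand for SETD5 and chr11:35211226-35211455 on the plus strand for CD44. The exons are 49 nt in IARS, 48 nt in RPN2, 70 nt in LUC7L, 57 nt in SETD5 and 204 nt in CD44.
IARS: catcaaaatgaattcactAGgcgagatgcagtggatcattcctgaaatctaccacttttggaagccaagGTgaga
RPN2: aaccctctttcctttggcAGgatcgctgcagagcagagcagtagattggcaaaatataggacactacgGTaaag
LUC7L: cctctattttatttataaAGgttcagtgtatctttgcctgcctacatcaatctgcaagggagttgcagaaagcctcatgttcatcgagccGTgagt
SETD5: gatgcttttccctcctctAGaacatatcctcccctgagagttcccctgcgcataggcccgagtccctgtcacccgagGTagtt
CD44: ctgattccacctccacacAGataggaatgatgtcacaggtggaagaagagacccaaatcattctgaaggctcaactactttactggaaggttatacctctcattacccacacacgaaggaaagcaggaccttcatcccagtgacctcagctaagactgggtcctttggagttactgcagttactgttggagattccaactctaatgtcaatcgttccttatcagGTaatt

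The SE events held 16951876 to 19737729 junction reads per library, and a read can count in several events. KHDRBS1 was examined first. The tables give no counts per gene, so the SE event with the most reads stood for each gene, in reads per 1000000 of such reads (rpm). KHDRBS1 had 318, 336 and 323 rpm in the controls and 1260, 1289 and 1307 rpm in the SAM68 libraries, which do not overlap. In limma this was a log2 fold change of 1.98 with a standard error of 0.048 (adjusted p = 9.66e-23), and reads of the plasmid's SAM68 sequence count in it. KRT8, the only epithelial keratin measured, was at 235 to 531 rpm, with the highest value in the control library in list position 1. Of the mesenchymal genes, CDH2 was at 23.4 to 32.3 rpm and VIM at 4122 to 4418 rpm. Of the markers of other cell types, CD68, a lysosomal protein of macrophages, was at 94.0 to 106 rpm and the fibroblast gene DCN at 0 to 1.46 rpm. The other markers checked, EPCAM, CDH1 and PTPRC among them, hold no event in the SE table, so that the check of the cell type is limited.

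The exons were mostly read at well under 1%. Their control PSI had a median of 0.499% (quartiles 0.133% and 1.41%) and was at most 4.98%. In 261 events the control libraries held no inclusion read at all. In these the limit that 3 reads would give was a PSI of 0.26% at the median event and 0.00446% to 1.22% over the events. A further 257 events lay above 0 and up to 0.1%, 1177 up to 1%, 416 up to 2% and 434 up to 5%. The events just inside the limit were DAZAP1 (4.98%), MRPL48 (4.97%) and OTUD6B (4.97%), and those just outside were BTBD1, TNK2 and SRPK2 (5.03% each). At the read minimum, SLC25A46, CALCOCO2 and LRRFIP1 lay just inside and COCH, COPS7B and PTK2 just outside.

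Inclusion rested on few reads in most of these events. The median was 7 inclusion reads summed over the 3 control libraries, and 7 over the 3 SAM68 libraries, while the events had a median of 229 reads per library. Only 840 of the 2545 events had an inclusion read in each of the 6 libraries, and 1458 had under 10 in the controls together. The spread between the control libraries followed the count. Among the 984 events with fewer than 10 inclusion reads over all 6 libraries the median coefficient of variation of the control PSI was 173%, the value that 3 libraries give when only 1 of them holds inclusion reads. It was 89.2% among 761 events with 10 to 30 reads, 49.9% among 604 with 30 to 100, and 30.2% among 196 with 100 or more. The reads carry no molecular identifiers, so the limits given cover counting error only.

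The exons were spread over many genes. Of the 1615 genes, 1037 held 1 such event and 34 held 5 or more. The 2545 events describe 2509 distinct exons and 2052 distinct skipping junctions, and 855 events share their skipping junction with another event, so that their PSI values share the skipping reads. SGCE, which encodes epsilon-sarcoglycan of the dystrophin-associated complex, held the most events (12), several of which overlap. CD44, the hyaluronan receptor whose variable exons are known to be regulated by SAM68, held the most on 1 skipping junction (7).

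Skipping was the annotated form. In GENCODE 44, the junction that skips the exon lies in the gene's canonical transcript for 93.3% of the 2509 exons, against 18.5% of the 2778 alternative and 0.0631% of the 15847 near constitutive exons. Only 65 of the rarely included exons (2.59%) are in the canonical transcript, against 68.5% and 91.9%. Nearly all (99.8%) are nonetheless annotated with these ends, 45.6% in a protein-coding transcript (86.0% and 95.4% in the other classes). For 54.2% all transcripts that hold the exon are NMD or noncoding transcripts, against 13.8% of the alternative and 4.42% of the near constitutive exons. The share found in at least 1 NMD transcript hardly differed (41.3%, 40.3% and 46.6%). These shares are descriptions over exons, with no test.

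Inclusion would bring a stop codon in most of them. The reading frame could be followed from the exon before for 2077 of the 2509 exons, and 1413 of these (68.0%) held an in-frame stop codon, against 18.5% of 2276 alternative and 6.10% of 14634 near constitutive exons. Of the rest, 311 (15%) shifted the frame without a stop codon and 353 (17%) kept it. Among the alternative exons 44.6% kept the frame, and among the near constitutive exons 39.5%. The first stop codon began at base 32 of the exon at the median, in exons with a median length of 118 nt. Of the exons with a stop codon, 820 (58%) are in an annotated NMD transcript. Others, such as those of MRPL52, PPIA and SNRPD2 described here, lie outside the annotated coding sequence of every transcript that holds them. The frame was read with the exon set between the neighbours of its event, so an exon that replaces another exon in a real transcript, as in the tropomyosin gene TPM3, can read as one that brings a stop codon. The median control PSI was 0.424% for exons with a stop codon, 0.476% for those that shift the frame and 0.452% for those that keep it.

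**Figure D1:**
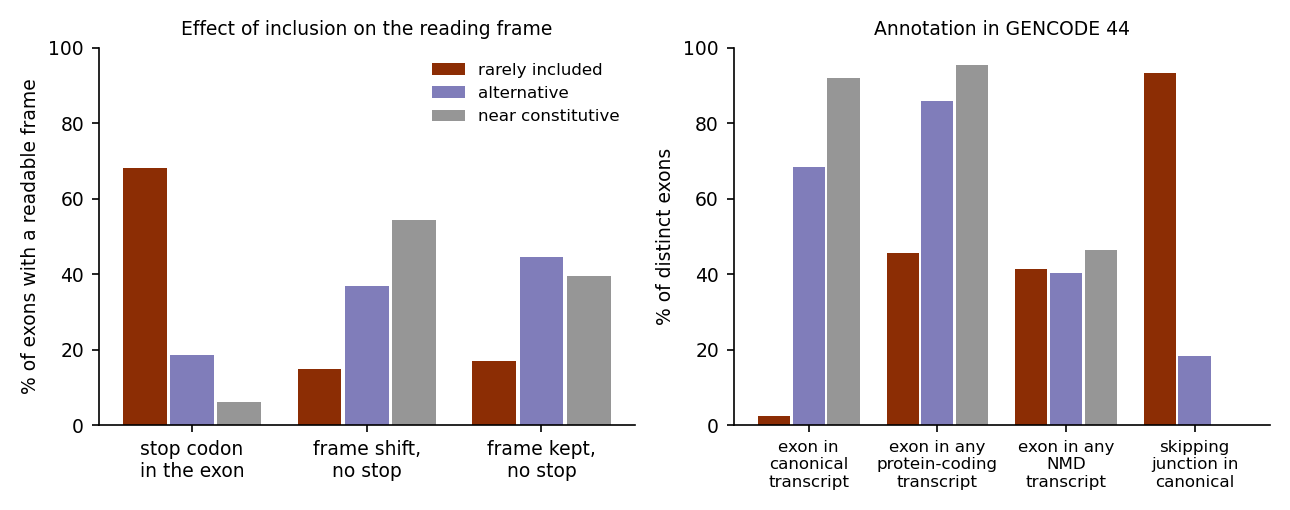
Left, share of exons with a readable frame (%) whose inclusion brings a stop codon, shifts the frame or keeps it; right, share of distinct exons (%) with each annotation in GENCODE 44. Dark red bars are rarely included, violet bars alternative and grey bars near constitutive exons. The stop codon bar is 68.0% for the rarely included exons against 18.5% and 6.10%, and their skipping junction is canonical in 93.3%.

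The splice sites of these exons were somewhat weaker at the 5′ end of the intron than at the 3′ end, relative to other exons. Each site was scored in bits with a weight matrix built on 15710 near constitutive exons, which therefore favours that class. The 5′ splice site scored 6.89 bits at the median (quartiles 4.88 and 8.61), against 7.62 for alternative and 8.05 for near constitutive exons. The 3′ splice site scored 8.64 bits (6.01 and 11.1), against 8.79 and 9.18. The distributions overlapped widely. The bases GT followed 95.3% of the exons (98.2% and 99.2% in the other classes), GT or GC 99.8%, and AG preceded 99.9%. Pyrimidines made up 70.6% at the median of the 17 bases scored in the run before the exon, against 76.5% in both other classes. Exon length hardly differed (medians 109, 112 and 118 nt), nor did GC content (50.4%, 50.7% and 49.4%), and 36.3% of the lengths were a multiple of 3 (47.2% and 40.9%). Exons of 50 nt or less made up 7.81%, against 6.34% and 3.88%. Among the sequences printed above, the exon of IARS had a 3′ splice site of -0.94 bits, with few pyrimidines before its AG, beside a 5′ splice site of 10.4 bits. RPN2 was the reverse, with 11.2 and 5.72 bits, as were LUC7L with 9.19 and 3.89 bits and SETD5 with 10.2 and 6.08 bits.

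**Figure D2:**
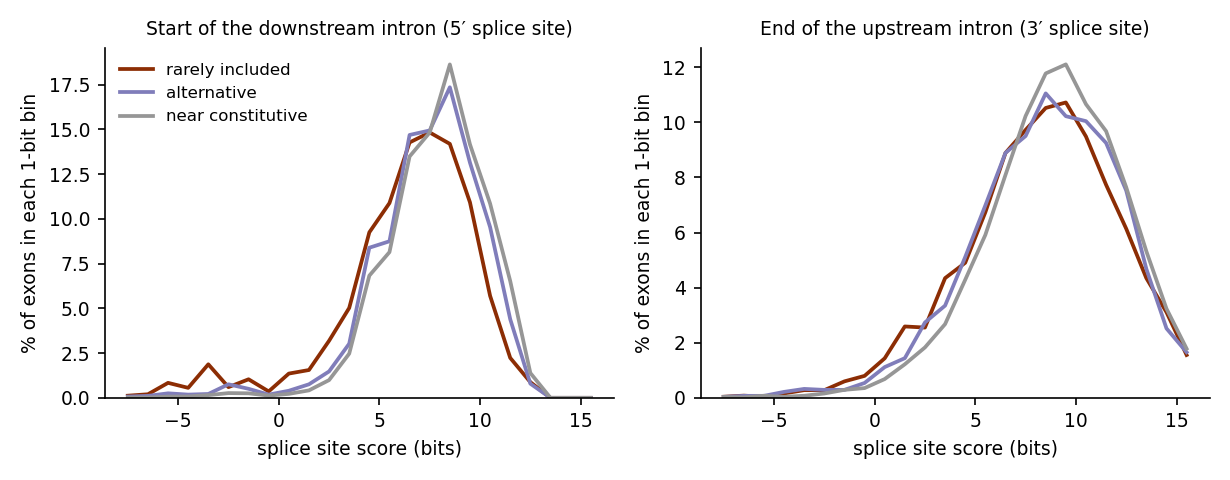
Score of the 5′ splice site (left) and of the 3′ splice site (right) in bits, as the share of exons (%) in each 1-bit bin; lines are rarely included (dark red), alternative (violet) and near constitutive (grey) exons. The median lies at 6.89 bits for the 5′ splice site of the rarely included exons and at 8.05 bits for the near constitutive exons, and the 3′ splice site curves lie closer together.

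Motifs known to be bound by SAM68 were about as frequent around these exons as around others. The letters TAAA and TTAA were searched on the coding strand in the exon and in the 100 nt of intron on each side, and the letters can overlap. TAAA was found in 29.6% of the rarely included exons (26.1% of alternative and 29.1% of near constitutive exons), in 40.5% of the introns before them (38.2% and 39.2%) and in 42.7% of those after them (39.2% and 39.9%). TTAA was found in 26.9% of the exons (22.6% and 24.1%), in 45.4% of the introns before (40.5% and 43.0%) and in 41.6% of those after (39.1% and 39.7%). TAGGG, bound by hnRNP A1, was found in 4.03% of the exons (3.13% and 2.22%), 5.42% of the introns before (6.12% and 6.26%) and 7.05% of those after (7.88% and 8.83%). Among the exons printed above, those of SRSF7, SRSF4 and HNRNPH1 hold TAAA, those of SRSF4 and NDUFA11 hold TTAA, and that of NDUFA11 holds TAGGG. A match of letters is no evidence of binding.

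A small set of 65 exons is part of the canonical transcript of its gene and was skipped in these cells. These exons lie in 53 genes, and their median control PSI was 0.889%. Of 55 with a readable frame, 45 kept it, 6 brought a stop codon and 4 shifted it. CD44 holds 7 of them. The control PSI was 1.88% for exon 12 of HM13, which encodes signal peptide peptidase, and 0.401% for exon 11 of DBN1, which encodes the actin-binding protein drebrin. It was 0.174% for exon 5 of CLTB, a clathrin light chain, 0.164% for exon 20 of ACTN1, an alpha-actinin, and 0.0709% for exon 2 of ALDOA, the glycolytic enzyme aldolase A. In the SAM68 libraries together these exons stood at 2.35%, 0.646%, 0.424%, 0.0726% and 0.086%. These genes were chosen after their values were seen.

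The SAM68 libraries held the exons at nearly the same levels as the control libraries. The median PSI over the events was 0.509% in the SAM68 libraries together (quartiles 0.141% and 1.52%). By library it was 0.406%, 0.378% and 0.375% in the controls and 0.404%, 0.392% and 0.386% in the SAM68 libraries. With the reads of all members summed, PSI was 0.556%, 0.560% and 0.549% in the controls and 0.601%, 0.58% and 0.599% in the SAM68 libraries, which do not overlap. A rule that selects a low control PSI favours a separation in this direction, so nothing is read from it. The limit of 5% was set on the control libraries alone, so an event could lie above it only in the SAM68 libraries. Of the 2545 events, 2472 were also at or under 5% in the SAM68 libraries, 73 were above 5% and 4 above 10%. With the limit set on the SAM68 libraries in place of the control libraries, 2533 events were found, of which 61 were above 5% and 4 above 10% in the controls.

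The difference between the groups was under 1 point of PSI in 2152 events and over 5 points in 8. The median absolute difference was 0.282 points, against 1.09 points over all 47450 SE events tested, and the median signed difference was 0.0263 points, against 0.0365. In the quasi-binomial test with Benjamini-Hochberg adjustment, 1 of the 2545 events (0.0393%), of U2AF1, passed an adjusted p of 0.05 with a difference of at least 10 points in either direction, beside 0.0738% of all SE events. Without the limit on size, 3 events passed with a higher PSI in the SAM68 libraries (0.118%, beside 0.0717% of all SE events) and 1 with a lower mean PSI (0.0393%, beside 0.0464%). None of these 4 passed when every event kept the spread of its own libraries, or in limma applied to logit PSI. At an unadjusted p under 0.05 there were 143 higher events (5.62%, beside 2.93% of all SE events) and 79 lower ones (3.10%, beside 2.65%). Of 2542 events with reads in every library, the 3 SAM68 values lay above all 3 control values in 126 (beside 2.55% of all SE events) and below them in 82 (beside 2.17%). The low control PSI chose these events, so nothing is read from an excess of higher values. Among the 2472 events at or under 5% in both groups, 98 lay above and 82 below without overlap, and with the limit set on the SAM68 libraries 98 lay above and 97 below.

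**Figure D3:**
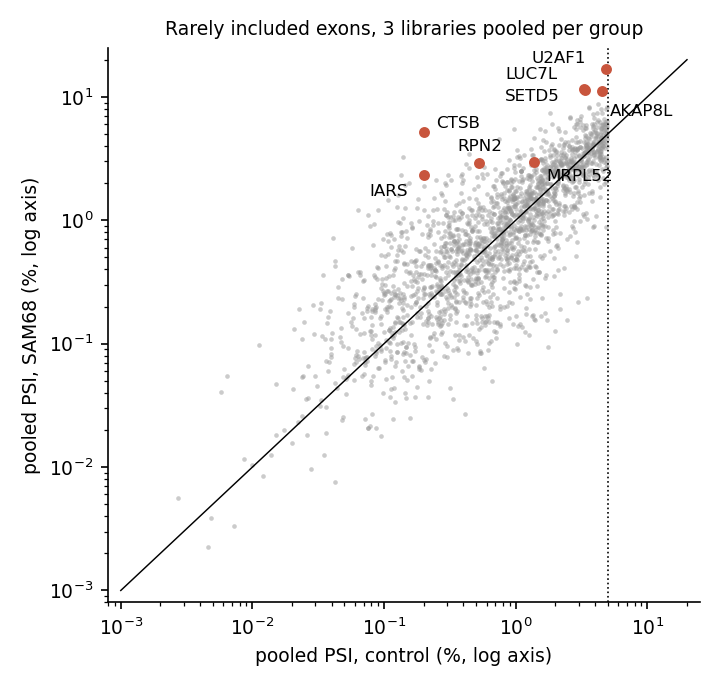
Pooled PSI (%) of each rarely included exon in the 3 control libraries (horizontal, log axis) and the 3 SAM68 libraries (vertical, log axis); each point is an event with inclusion reads in both groups, the solid line marks equal PSI and the dotted line the 5% limit. Most points lie along the line of equal PSI, and the 8 named exons, drawn in red, lie above it at 2.33% to 16.8% in the SAM68 libraries. These 8 were picked for the figure after their values were seen, all with a higher pooled PSI in the SAM68 libraries. Exons that fell, such as those of COX14 and LGMN, are not marked.

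The exon of IARS (ENSG00000196305.17), the cytosolic isoleucyl-tRNA synthetase, had the smallest adjusted p. This 49-nt exon (chr9:92240643-92240691, minus strand) is annotated in NMD and retained-intron transcripts and shifts the frame. It had 0, 3 and 2 inclusion reads in the controls beside 550, 644 and 620 skipping reads, and 23, 18 and 11 beside 566, 524 and 505 in the SAM68 libraries. Every SAM68 library lay above every control library. PSI was 0.191% ± 0.174 (SD, n = 3) in the control and 2.30% ± 0.671 (SD, n = 3) under SAM68. The difference was 2.11 points with an adjusted p of 0.00405. With 1 library left out in turn, the adjusted p ran from 0.0036 to 0.0878, and the call was lost without the first library of either list.

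The exon of RPN2 (ENSG00000118705.16), a subunit of the oligosaccharyltransferase that attaches sugars to proteins in the endoplasmic reticulum, also rose. This 48-nt exon (chr20:37238402-37238449, plus strand) keeps the frame and is annotated in a protein-coding transcript. Its PSI was 0.147%, 0.829% and 0.473% in the controls and 3.82%, 1.90% and 2.82% in the SAM68 libraries, on 13 and 65 inclusion reads in all. The groups do not overlap. The difference was 2.36 points with an adjusted p of 0.0160, which ran from 0.00999 to 0.297 with 1 library left out in turn. The exon of MRPL52 (ENSG00000172590.18), a protein of the large mitochondrial ribosomal subunit, is 74 nt long (chr14:22830964-22831037, plus strand). In the frame of the exon before it brings a stop codon at base 6, but no transcript that holds it has annotated coding sequence there. It had 19, 54 and 22 inclusion reads in the controls and 53, 65 and 58 in the SAM68 libraries. PSI was 0.901%, 2.19% and 0.949% in the controls and 2.43%, 3.08% and 3.53% in the SAM68 libraries, again without overlap. The difference was 1.66 points with an adjusted p of 0.0374, which ran from 0.00204 to 0.423 with 1 library left out.

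The event of U2AF1, which encodes the protein that binds the AG of the 3′ splice site and is mutated in some LUAD, cannot be read as a change. This 67-nt exon (chr21:43100453-43100519, minus strand, ENSG00000160201.11) is exon 3 of the canonical transcript. The stop codon read in it rests on setting it between the neighbours of its event. It had 23, 5 and 1 inclusion reads and 303, 71 and 0 skipping reads in the controls. In the SAM68 libraries it had 101, 0 and 0 inclusion reads and 331, 0 and 0 skipping reads, so that only 1 of them gives a PSI. The control library with a single inclusion read gives 100%, so that the difference of the means was -19.6 points although the pooled PSI went from 4.89% to 16.8%. Without that library the difference was 12.2 points in the other direction. The gene has a near-identical copy, U2AF1L5, between which reads may be divided, and the values of this event are uncertain.

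Some other exons with a low unadjusted p did not pass the adjusted p. LUC7L (ENSG00000007392.16), a U1 snRNP-associated protein that takes part in the choice of 5′ splice sites, had a 70-nt exon with PSI of 2.20%, 5.09% and 2.53% in the controls and 12.7%, 8.32% and 13.9% in the SAM68 libraries (8.35 points, adjusted p = 0.198). SETD5 (ENSG00000168137.15), a chromatin regulator, had a 57-nt exon with 1.35%, 4.35% and 4.8% in the controls and 12.2%, 12.7% and 9.71% in the SAM68 libraries (8.02 points, adjusted p = 0.209). AKAP8L (ENSG00000011243.17), a nuclear protein that binds RNA and chromatin, had a 137-nt exon with 5.49%, 2.04% and 6.55% in the controls and 16.3%, 8.54% and 7.34% in the SAM68 libraries (6.02 points, adjusted p = 0.0501). With 1 library left out in turn, the AKAP8L difference ran from 3.25 to 7.70 points and the adjusted p from 0.0163 to 0.801. In all 3 of these exons the groups do not overlap, and the inclusion reads were 20 and 59 in LUC7L, 19 and 54 in SETD5 and 59 and 127 in AKAP8L. CTSB, the lysosomal protease cathepsin B, had 0, 1 and 0 inclusion reads of a 74-nt exon in the controls and 8, 9 and 13 in the SAM68 libraries (adjusted p = 0.122). In the other direction, the 60-nt exon of COX14, an assembly factor of cytochrome c oxidase, had 10, 10 and 0 inclusion reads in the controls and 0 in each SAM68 library (adjusted p = 0.121). The 118-nt exon of LGMN, the protease legumain, had 17, 28 and 0 inclusion reads in the controls and 6, 0 and 2 in the SAM68 libraries (adjusted p = 0.177). In both, the control library in list position 3 holds no inclusion read and the groups overlap. These 6 genes were chosen after their values were seen.

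**Figure D4:**
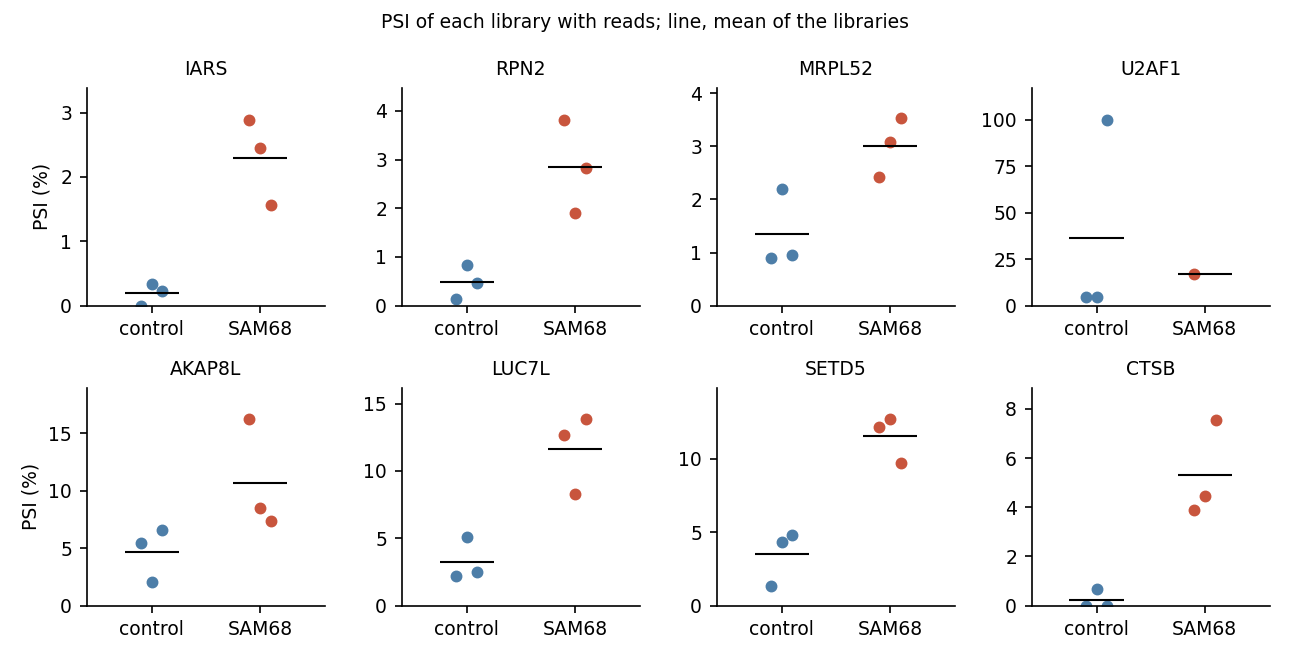
PSI (%) of 8 exons in each library that has reads of the event; points are libraries, blue control and red SAM68, and the line is their mean. The 8 exons were picked after their values were seen, all with a higher pooled PSI in the SAM68 libraries, and exons that fell are not shown. The groups do not overlap in IARS, RPN2, MRPL52, AKAP8L, LUC7L, SETD5 and CTSB. For U2AF1 only 1 SAM68 library has reads and 1 control library stands at 100% on a single read.

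The exons with the most inclusion reads are described here with each gene taken once, by its event with the most reads. The 157-nt exon of PPIA (chr7:44798748-44798904, plus strand), which encodes cyclophilin A, had the most, with 1987 reads in the control and 1923 in the SAM68 libraries, and brings a stop codon. Its PSI was 1.69%, 1.75% and 1.88% in the controls and 1.8%, 1.51% and 1.65% in the SAM68 libraries, which overlap. The poison exon of RPS9 printed above had 137, 159 and 131 inclusion reads in the controls and 213, 176 and 182 in the SAM68 libraries. Its PSI was 0.760% ± 0.0675 (SD, n = 3) and 1.09% ± 0.0324 (SD, n = 3) without overlap, a difference of 0.328 points with an adjusted p of 0.116. The exon of NDUFA11 stood at 2.65% ± 0.376 and 2.64% ± 0.284 (SD, n = 3 each), and that of SNRPD2 at 2.03% ± 0.242 and 1.78% ± 0.327 (SD, n = 3 each). HMGN1, a nucleosome-binding protein, ATP5MPL, a small subunit of ATP synthase, and the adaptor proteins YWHAE and YWHAB of the 14-3-3 family completed the 8 genes of this order. Their pooled PSI was 4.23%, 3.00%, 2.58% and 2.84% in the control and 4.86%, 3.4%, 2.56% and 3.86% in the SAM68 libraries, with adjusted p of 0.699 to 0.979. The groups overlap in each of the 4.

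The events with the most reads of both forms belong to ribosomal protein genes and PPIA, and there the depth reaches PSI values far under 0.1%. The 115-nt exon of RPS19 had 66 inclusion reads beside 134469 skipping reads in the controls and 47 beside 137535 in the SAM68 libraries, a pooled PSI of 0.0261% and 0.0182%. RPS18 stood at 0.030% and 0.0548% and RPLP0 at 0.0138% and 0.0126%. The 35-nt exon of RPL37A had 1 inclusion read beside 78811 skipping reads in the controls and none beside 76417 in the SAM68 libraries. None of these differences passed the adjusted p (0.699 to 0.945).

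Next, 11 lists of genes were read against the members. They were set by symbol or by the start of a symbol, so that a few hold genes with another role, such as assembly factors or pseudogenes. Across all of them only the event of U2AF1 passed the adjusted p, and U2AF1 is in both the core spliceosome and the LUAD list. The background of the counts that follow is the share of all members at an unadjusted p under 0.05, 5.62% higher and 3.10% lower. The shares of all SE events, 2.93% and 2.65%, were not chosen by control PSI and are less alike.

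SR proteins held 11 such events in 6 of 12 genes measured, and 9 of the 10 with a readable frame brought a stop codon. None had an unadjusted p under 0.05. The median PSI was 0.359% in the control and 0.683% in the SAM68 libraries. The exon of SRSF2 stood highest, at 3.57%, 4.46% and 5.21% in the controls and 5.52%, 6.62% and 4.51% in the SAM68 libraries, which overlap. The exon of SRSF7 printed above had 30, 41 and 22 inclusion reads in the controls and 33, 26 and 19 in the SAM68 libraries, with PSI of 2.55% ± 0.652 and 2.29% ± 0.324 (SD, n = 3 each). SRSF7 also held a 69-nt exon at 0.346% and 0.379%. The exon of SRSF4 printed above stood at 1.53% in the control and 1.75% in the SAM68 libraries on 18 and 17 inclusion reads, and another SRSF4 exon of 184 nt at 0.359% and 0.683%. SRSF3 had 1 event at 0.0272% and no inclusion read in the SAM68 libraries, and SRSF9 none in the controls and 0.0723% in the SAM68 libraries.

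The hnRNP list held 12 events in 7 of 25 genes, 6 of them in HNRNPC. The median was 0.781% and 0.630%. A 163-nt exon of HNRNPC stood highest among the control values, at 2.10%, 2.02% and 3.51%, beside 2.49%, 3.53% and 3.10% in the SAM68 libraries. The exon of HNRNPH1 printed above had 5, 40 and 23 inclusion reads in the controls and 13, 12 and 17 in the SAM68 libraries, so that the control libraries spread more widely than the groups differ. HNRNPLL, known for regulating CD45 splicing in T cells, had a stop codon exon with PSI of 3.05%, 0% and 0.868% in the controls and 4.24%, 5.18% and 2.08% in the SAM68 libraries, which overlap (adjusted p = 0.699). HNRNPLL and HNRNPD were the 2 events of the list with an unadjusted p under 0.05, both higher.

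The core spliceosome list held 30 events in 24 of 45 genes. Of 28 with a readable frame, 24 brought a stop codon, the canonical exon of U2AF1 among them. The median was 0.273% in the control and 0.186% in the SAM68 libraries, and 3 events had an unadjusted p under 0.05, all lower by the mean of the libraries. They were U2AF1, PRPF19, the ubiquitin ligase of the spliceosome (0.415% and 0.0271%), and SNRPG, a core snRNP protein (0.113% and no inclusion read). The exon of U2AF2 printed above stood at 1.25%, 1.89% and 1.74% in the controls and 0.969%, 0.773% and 1.89% in the SAM68 libraries, which overlap. SNRPB stood at 0.313% ± 0.0593 and 0.364% ± 0.0891 (SD, n = 3 each).

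Other splicing regulators held 39 events in 21 of 28 genes, with medians of 0.972% and 0.901%. Of 27 with a readable frame, 17 brought a stop codon. At an unadjusted p under 0.05, 5 events had a higher and 1 a lower PSI. The higher ones were LUC7L, a pair of overlapping exons of LUC7L3, an exon of the cold-inducible RBM3 (1.01% and 1.71%) and an exon of the coactivator RBM39 (1.31% and 2.81%). The lower one was SRRM2, a large scaffold protein of nuclear speckles, with 2.31% and 0.407% (adjusted p = 0.338). The exons of LUC7L3 share reads, and stood at 0% to 0.245% in the controls and 0% to 1.71% in the SAM68 libraries. SON, another nuclear speckle protein, stood at 4.6% ± 1.5 and 5.97% ± 1.74 (SD, n = 3 each) and the kinase SRPK1 at 3.85% ± 1.83 and 2.49% ± 1.03 (SD, n = 3 each).

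Among 12 genes of the NMD pathway measured, only MAGOHB, a protein of the exon junction complex, held a rarely included exon. It brings a stop codon and stood at 1.97%, 0% and 2.20% in the controls and 2.56%, 1.81% and 3.08% in the SAM68 libraries, which overlap.

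The translation list of ribosomal proteins and translation factors held 64 events in 43 of 138 genes, at lower PSI than any other list here, with medians of 0.0815% and 0.0922%. These are also among the most deeply read genes. Of 50 with a readable frame, 31 brought a stop codon. At an unadjusted p under 0.05, 6 events were higher and none lower. They were RPS9, EIF5A, EEF1B2, RPL29, RPS18 and RPS15. EIF5A, a translation factor that carries hypusine, had 23, 29 and 43 inclusion reads in the controls and 53, 42 and 49 in the SAM68 libraries, with PSI of 0.373% ± 0.125 and 0.721% ± 0.134 (SD, n = 3 each; adjusted p = 0.246). EEF1B2 stood at 0.217% and 0.410%, and the 111-nt exon of RPS15 at 0.0382% and 0.0713%.

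Genes known as SAM68 targets in other cells held 21 events in 4 of 9 genes, namely CD44, SGCE, MTOR and PKM. A stop codon was read in 6 of the 20 exons of this list with a readable frame, which the exon of PKM lacks. These 6 belong to SGCE and MTOR. The 7 exons of CD44 are exons 7, 8 and 10 to 14 of the canonical transcript, and all keep the frame. They share a skipping junction with 920, 887 and 989 reads in the controls and 1057, 821 and 836 in the SAM68 libraries. The last of them, the exon of 204 nt printed above, was read most, at 2.44%, 2.26% and 1.44% in the controls and 2.27%, 2.55% and 3.63% in the SAM68 libraries. Exon 7 stood at 1.47% and 1.41%, exon 10 at 0.911% and 0.774% and exon 12 at 0.401% and 0.228%. Exons 8, 11 and 13 had 0 to 7 inclusion reads per group. None of the 7 had an unadjusted p under 0.05, and the groups overlap in each exon. Exon 9 is not among the members. It is the variable exon whose inclusion the paper cites as enhanced by ERK-phosphorylated SAM68, so these values do not cover that exon.

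In SGCE, 3 overlapping exons that begin at the same base had an unadjusted p under 0.05, all higher. The longest, of 256 nt, stood at 0%, 0% and 0.211% in the controls and 2.30%, 0.474% and 0.699% in the SAM68 libraries (adjusted p = 0.502). The 3 exons share reads on a junction and are not separate observations. The SGCE exon with the most inclusion reads, of 108 nt, stood at 2.22%, 4.0% and 1.91% and at 5.74%, 3.24% and 2.29%, which overlap. In PKM, which encodes the M1 and M2 forms of pyruvate kinase, a 117-nt exon (chr15:72221168-72221284, minus strand) had 30, 34 and 19 inclusion reads in the controls and 35, 7 and 22 in the SAM68 libraries. Its PSI was 0.491%, 0.477% and 0.270% and then 0.324%, 0.0725% and 0.248%, a difference of -0.197 points with an adjusted p of 0.699. This exon is not in the canonical transcript. It is neither of the mutually exclusive exons that give the M1 and M2 forms, so its values are no measure of that choice. The single MTOR exon stood at 0.707% ± 0.835 and 0.790% ± 0.779 (SD, n = 3 each).

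Glycolysis held 10 events in 7 of 13 genes, with medians of 0.172% and 0.152%, and the event of PKM was the only one with an unadjusted p under 0.05. ALDOA, PFKM and PFKP stood at 0.0709%, 0.436% and 0.353% in the control and 0.0860%, 0.753% and 0.288% in the SAM68 libraries. The LUAD list held 10 events in 9 of 12 genes, and all 8 with a readable frame brought a stop codon. These include the canonical exon of U2AF1, whose stop codon rests on the neighbours of its event. The kinase STK11, a tumour suppressor, stood at 2.66% ± 2.31 in the controls and at 3.13% ± 2.51 in the SAM68 libraries (SD, n = 3 each). CDKN2A, which encodes p16 and p14ARF, stood at 0.732% ± 0.107 and 0.828% ± 0.399 (SD, n = 3 each). A 50-nt exon of the receptor tyrosine kinase MET stood at 3.13% and 7.05%, with an unadjusted p above 0.05.

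Oxidative phosphorylation held 57 events in 40 of 82 genes, with medians of 0.317% and 0.379%, and 32 of 47 with a readable frame brought a stop codon. At an unadjusted p under 0.05, 3 were higher, in ATP5F1C, COX17 and SDHD, and 2 lower, in COX14 and COX7B2. ATP5F1C, the gamma subunit of ATP synthase, stood at 0.0840% and 0.936% without overlap (adjusted p = 0.440), and COX17, a copper chaperone, at 1.61% and 2.89%. The ubiquitin and proteasome list held 40 events in 27 of 107 genes, with medians of 0.795% and 0.651%, and 30 of 39 brought a stop codon. At an unadjusted p under 0.05, 2 were higher, in UBE2D2 and in USP39, a deubiquitinase-like protein of the spliceosome (0.249% and 2.13%, adjusted p = 0.457). The 2 lower ones were in UBE2J2 and in the proteasome assembly factor PSMG4. PSMG4 stood at 4.12%, 3.81% and 4.10% in the controls and 1.92%, 3.78% and 1.8% in the SAM68 libraries, which do not overlap (adjusted p = 0.699).

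**Figure D5:**
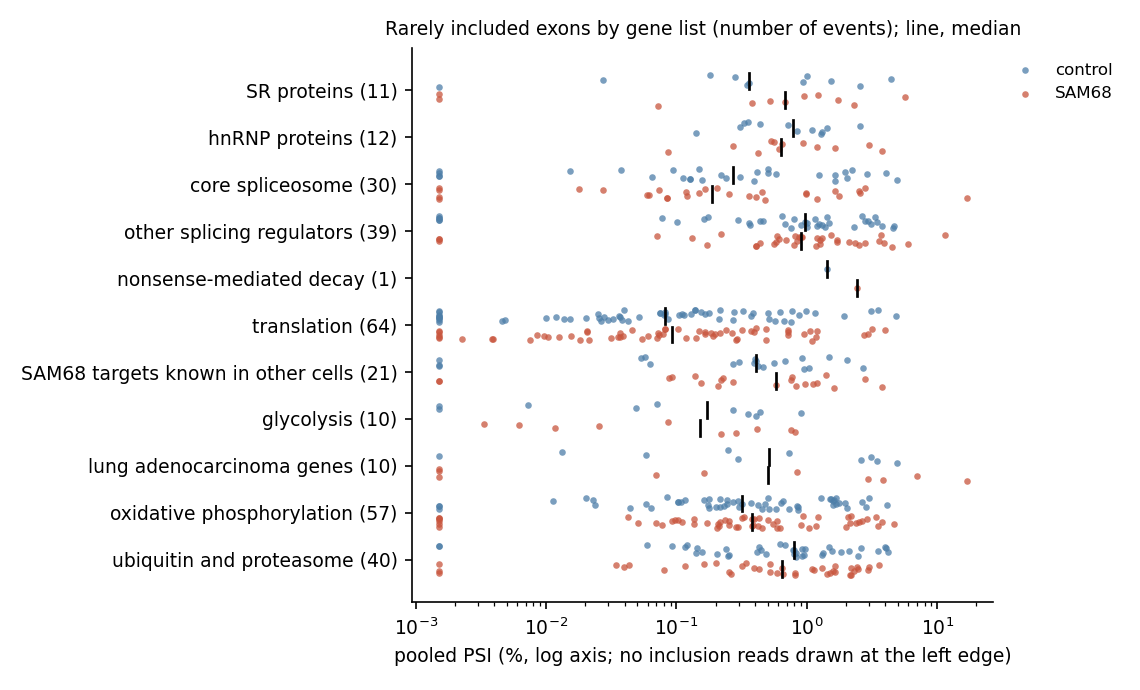
Pooled PSI (%, log axis) of the rarely included exons of each gene list in the 3 control (blue) and 3 SAM68 libraries (red); each point is an event, the black line is the median, and events with no inclusion reads are drawn at the left edge. The translation list lies lowest, with medians of 0.0815% and 0.0922%, and the medians of both groups lie close together in most lists.

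The junction reads of each gene, taken from its event with the most reads, were compared between the groups. The rule took its minimum of 100 reads from junction reads of the same libraries, and the share over all genes is not matched to it in depth. No gene with a rarely included exon passed an adjusted p of 0.05 with a log2 fold change of at least 0.58 in limma, of 1615 tested, beside 0.111% of 9872 genes (11 genes). At an unadjusted p under 0.05 there were 265 (16.4%, 95 higher and 170 lower), beside 11.9% of all genes and 13.4% of the 4310 genes with an exon of the same lengths and minimum of reads that was not rarely included. Without the limit on size 17 of them passed the adjusted p (1.05%), beside 0.436% of all genes and 0.487% of those 4310 genes, and the difference between these shares was not tested. PKM rose by 0.30 on the log2 scale (standard error 0.035, adjusted p = 1.21e-05), HNRNPC by 0.25 (adjusted p = 0.0286) and ENO1, the glycolytic enzyme enolase, by 0.16 (adjusted p = 0.0253). HSP90B1, a chaperone of the endoplasmic reticulum, fell by 0.45 (adjusted p = 0.000354), IL6ST, the shared receptor of the interleukin 6 family, by 0.53 (adjusted p = 0.0216) and EIF5A by 0.27 (adjusted p = 0.024). These genes were chosen after their values were seen. The median log2 fold change was -0.01 over the genes with a rarely included exon and -0.03 over all genes. Reads per event depend on the isoforms as well as on the level of the gene, and these cannot be told apart.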

How the data were processed

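RNA of 6 libraries of NCI-H1975 cells was sequenced by the authors as paired-end reads. The labels name CASAVA 1.4, fastp 0.20.0 and HISAT2 2.1.0, and the methods HISAT2 on the GRCh38 set without alternate contigs and rMATS. The deposited tables hold, as lists of 3 values per group, the authors' raw junction read counts, not normalized, besides inclusion levels, their difference, a p-value and an FDR of the authors' own comparison, which were not used. The lists name no group: the first was taken as the control because a plot of the study gives its PKM counts to the control libraries. Only the SE table was used, with its inclusion and skipping junction counts of both groups.

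The members and the gene lists were chosen with earlier results of these data known. PSI was computed per library, and per group from summed reads. The 47450 SE events that averaged 10 reads or more entered quasi-binomial fits of the group effect (R 4.3.3), whose Pearson dispersion was shrunk by squeezeVar from limma 3.58.1, with 1 as its lowest value, followed by an F test and Benjamini-Hochberg adjustment. The prior degrees of freedom were infinite, so that all events shared a dispersion of 2.30, and events that vary more than this are tested against too small a spread. P-values measure the spread between these libraries, which the paper's methods call biological replicates. All are of 1 cell line, and part of the spread may be technical. The count model planned for reads per gene was replaced by limma (eBayes with trend) on log2(rpm + 0.5) for genes that averaged 10 reads or more.

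Sequences and frames came from hg38 and GENCODE 44, read with pysam 0.24.0; 1615 of 1615 gene identifiers were found. Splice sites were scored on 20 intron and 3 exon bases (3′) and 3 exon and 6 intron bases (5′). Exons described more than once were taken once, from the event with the most reads. Named exons were those past the adjusted p, the 8 with the most inclusion reads, the 5 with the most reads, up to 4 per list by inclusion reads (1 per gene, its event with the most reads) and those nearest the limits; all other names were chosen after their values were seen. Not every exon that this rule names is reported here. Depth was 16951876 to 19737729 SE reads per library. Alternatives were other models of the spread, read minimums, PSI limits, PSI without division by length, 1 event per exon and each library left out.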

Additional observations from a re-analysis of the deposited data

How the results depend on the processing

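No paired analysis was possible because the lists of counts carry no replicate numbers. The count of 2545 members was 1446 with a mean of at least 200 reads and 2112 to 3610 under the other limits. The 4 members past the adjusted p were 0 with each event's own spread, 0 from limma applied to logit PSI and 217 with a likelihood ratio test on pooled counts, which ignores the spread between libraries. A prior spread from events with at least 10 reads of each form, chosen after seeing the data, gave 0. The 1 member called with a difference of 10 points became 0, 0, 2 and 0 under the same settings. With 1 library left out in turn, 0 to 5 members passed the adjusted p (0 without the first control library, 1 without the first SAM68 library) and 0 to 1 were called. Chosen on the SAM68 libraries, 2 were lower past the adjusted p, beside 3 higher in the main choice. The difference of U2AF1 turned from -19.6 to 12.2 points without control library 3, and lay between -35.6 and 12.2 points with 1 library left out.

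The median SAM68 PSI of 0.509% was 0.899% without the division by length, 0.502% with 1 event per exon and 0.476% to 0.495% with 1 SAM68 library left out. The 0 member genes with changed junction reads became 1 with the reads of all events summed and 0 to 3 with 1 library left out (2 without SAM68 library 2 and 3 without SAM68 library 3). IARS passed the adjusted p in 8 of 13 alternatives, RPN2 in 7, MRPL52 in 5 and AKAP8L in 5. Over 70 named members and 907 alternatives, 24 lost and 22 gained a call, and 1 called difference (U2AF1) reversed. The other 860 stayed on their side of the threshold, and among them differences that were not called, such as that of NDUFA11, changed sign in some of the fits that left out a library. The count models planned as alternatives were not run. A median ratio scaling was run within limma and gave 0 member genes with changed junction reads.

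Depth limits most events, with a median of 7 inclusion reads per group.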
